A study of Bos taurus with 6 samples.

Results

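Desmosomes and gap junctions join the cells of an epithelium, and the outer layer of a bovine blastocyst, the trophectoderm, is the first epithelium that an embryo makes. The genes described here encode desmosomal cadherins (DSC2 and DSG2), desmosomal plaque proteins (DSP, JUP and PKP2) and connexins, the subunits of gap junctions (GJA1, GJB2, GJB5 and GJC1). All probe sets annotated to 1 of these 9 symbols were kept, whatever their values. This gave 11 of the 24036 probe sets in the deposited table of the Affymetrix Bovine Genome Array, for 7 of the 9 genes. The annotation used here pairs no probe set with DSP or DSG2, which were not analysed here.

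The tested embryos were late degenerative embryos, which had compacted into a morula but did not complete the passage to a blastocyst by day 8 of culture. They were compared with day 8 blastocysts from the same in vitro fertilization (IVF) system, which showed a blastocoele and a distinct inner cell mass. Both groups came from oocytes of cows collected at an abattoir and fertilized with bull semen, and both had passed the same selection for compaction, so that embryos arrested earlier are in neither group. Each group had 3 pools of 20 embryos, named A, B and C, each from several cows and bulls and each on its own array. A pool is the replicate, and single embryos cannot be seen in these values.

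In a desmosome, cadherins of the desmocollin and desmoglein families reach across the gap between cells. Inside the cell they bind plakoglobin (JUP) and plakophilins such as PKP2, and desmoplakin (DSP) ties this plaque to the keratin filaments. Desmosomes appear in the trophectoderm around cavitation, when the blastocoele forms, and help the epithelium to withstand the pressure of the blastocoele fluid, as was worked out in the mouse. In a gap junction, connexins of facing cells form channels that let ions and small molecules pass, and coupling of this kind starts in the mouse around compaction.

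The deposited values are log2 expression levels made with GCRMA, a method that subtracts background estimated from probe sequence and sets all arrays to a common distribution. A step of 1 is a doubling of the measured signal. The scale ends in a floor at 2.12, and between 27.4 and 28.6% of all values of a pool lay within 0.01 of it. Degenerative pool A stood apart from the other pools: 29.7% of the tested probe sets lay more than 1 from the mean of degenerative pools B and C. The same share was 13.2% for blastocyst pool A against blastocyst pools B and C. The differences of the desmosome and gap junction genes, and of some other named genes that moved with degenerative pool A, are therefore also given without it.

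Of the 11 probe sets, 7 lay clearly above the floor in at least some pools, 1 each for DSC2, JUP, GJA1, GJB5 and GJC1 and a pair for PKP2. The other 4, for GJA1 and GJB2, stayed at the floor, and 2 of those had a single value on all arrays and were not tested. Levels of different probe sets cannot be ranked, since each probe set has its own affinity.

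**Figure D1:**
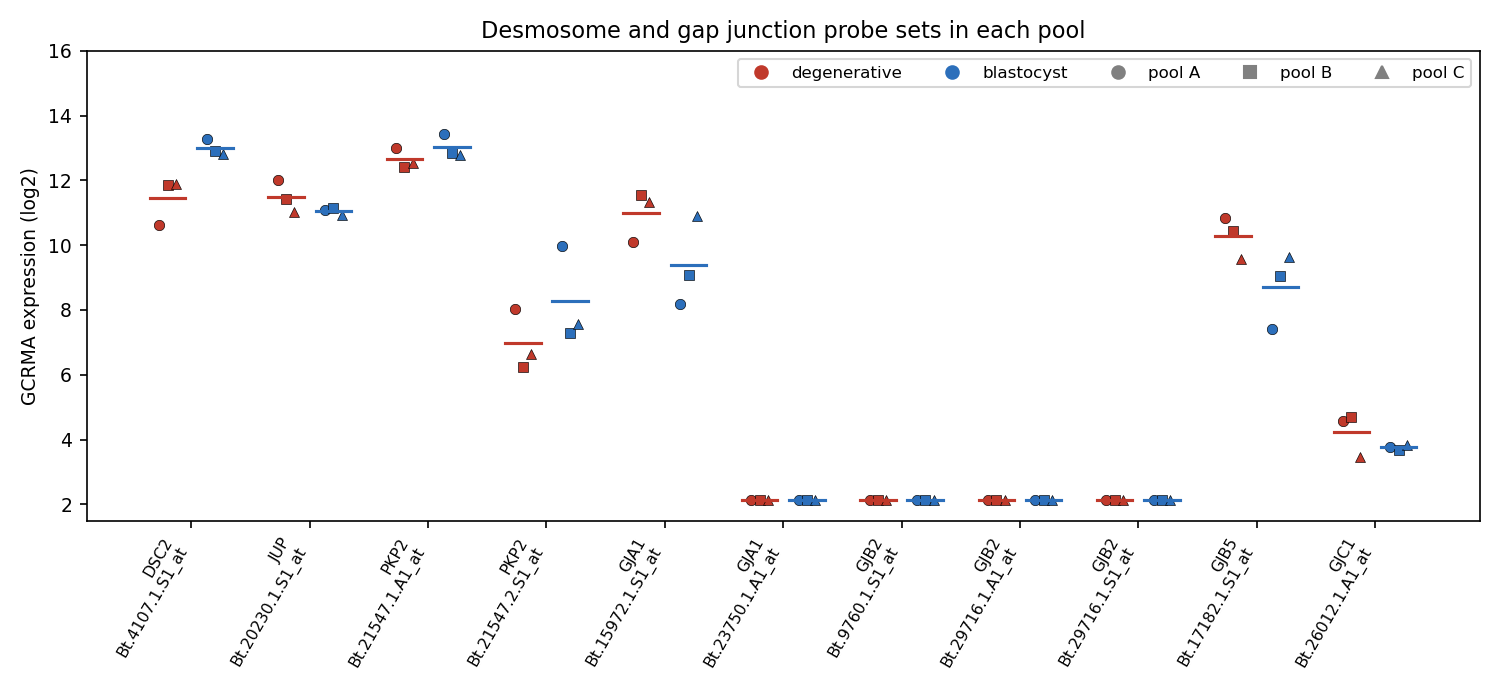
GCRMA expression (log2, y axis) of the 11 probe sets (x axis) in each pool, with degenerative pools (red) left of blastocyst pools (blue), symbols for pools A, B and C, and a line at each group's mean. DSC2 is the probe set whose 3 degenerative pools (10.63 to 11.89) all lie below the 3 blastocyst pools (12.81 to 13.28), and 4 probe sets of GJA1 and GJB2 lie at the floor.

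DSC2 read lower in all 3 degenerative pools than in any blastocyst pool. GJA1 and GJB5 had higher means in degenerative embryos but overlapped between the groups, as did the plaque genes JUP and PKP2. None of these differences passed the main test. With limma, a linear model over all 18937 varying probe sets whose spread is moderated across probe sets, none of the 9 tested probe sets passed an adjusted p of 0.15. The smallest adjusted p among them was 0.509, for DSC2. The background was as thin: 4 of 18937 probe sets passed, or 0.0211%. With significance analysis of microarrays (SAM), the test named in the methods, 0 of the 9 were called at a false discovery rate of 15%, where 67 probe sets or 0.354% were called, and 1 of the 9, DSC2, at 25%, where 854 or 4.51% were called. At an unadjusted limma p under 0.05 there was likewise 1 of the 9, DSC2, against 8.61% of all tested probe sets. With the pool letter as a replicate block this turned over: DSC2 no longer had such a p, both PKP2 probe sets did, and so 2 of the 9, against 9.45% of all tested probe sets. These p-values rest on how much 3 pools of a group vary.

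By size of the difference, of the 9 tested probe sets, 4 differed by at least 1 on the log2 scale, where 10.9% of all tested probe sets did. These were the probe sets of DSC2, GJA1 and GJB5 and the dimmer PKP2 probe set. The median difference over the 9 probe sets was 0.00, against 0.0013 over all tested probe sets, with 4 differences above and 4 below zero. Both tested GJB2 probe sets, which lay at the floor, are counted here. They supply the median itself and a difference of -0.01, so this balance tells little. Above the floor, JUP, GJA1, GJB5 and GJC1 had differences above zero, and DSC2 and both PKP2 probe sets below it. In bulk pools, fewer cells of a type and less RNA per cell cannot be told apart, and this holds for each value that follows.

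**Figure D2:**
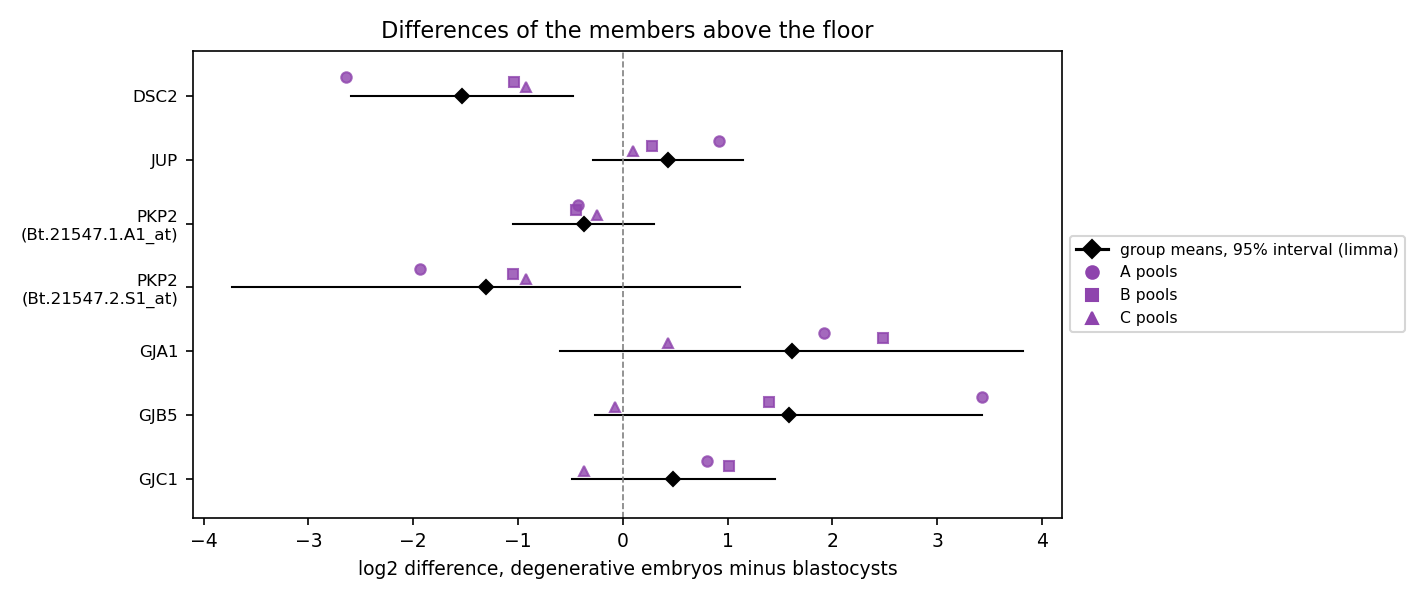
Log2 difference (x axis, degenerative minus blastocyst) of the 7 probe sets above the floor (y axis). Diamonds and bars give the difference of the group means with its 95% interval from limma, and the purple symbols the difference within each pool letter. The interval of DSC2 (-2.60 to -0.47) lies below zero and the other 6 intervals cross it.

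DSC2 encodes desmocollin 2, the desmocollin of simple epithelia and heart muscle. Its probe set read 10.63, 11.86 and 11.89 in degenerative pools A, B and C, against 13.28, 12.90 and 12.81 in blastocyst pools A, B and C. The groups did not overlap. The highest degenerative pool lay 0.92 below the lowest blastocyst pool, and degenerative pool A lay lowest of all. The means were 11.46 ± 0.72 in degenerative embryos and 12.99 ± 0.25 in blastocysts (SD, n = 3 each), a log2 difference of -1.53 (SE 0.40, 95% interval -2.60 to -0.47), or 2.90-fold lower. The adjusted limma p was 0.509. An exact two-sided permutation test of the means gave 0.1, the smallest p that the 20 relabelings of 3 against 3 pools allow. Among all tested probe sets, 3.77% had a larger difference in either direction.

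Of the 9 tested probe sets, DSC2 was the 1 without overlap between the groups, or 11.1%. Among all tested probe sets 15.4% had no overlap, 8.93% with degenerative embryos lower and 6.48% with degenerative embryos higher. The share among the desmosome and gap junction probe sets was thus not above the background. Within each letter DSC2 was lower in the degenerative pool, by -2.64 for A, -1.04 for B and -0.92 for C. Without degenerative pool A the difference was -1.12 (adjusted p = 0.273) and without both A pools -0.98 (adjusted p = 0.216). The SAM call at 25% was kept without degenerative pool A (1764 probe sets called in all, 9.55%). It was lost when any of the other 5 pools was left out, where SAM called between 1 and 190 probe sets in all, while the difference stayed between -1.39 and -1.75.

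JUP encodes plakoglobin, an armadillo protein that is found in desmosomes and in adherens junctions. Its probe set read 12.01, 11.41 and 11.03 in degenerative pools A, B and C, against 11.10, 11.14 and 10.93 in the blastocyst pools. Degenerative pool A was the high one, and degenerative pool C lay within the range of the blastocysts. The means were 11.49 ± 0.50 in degenerative embryos and 11.06 ± 0.11 in blastocysts (SD, n = 3 each), and the difference of 0.43 (SE 0.27, 95% interval -0.29 to 1.14) was within the spread of the pools (adjusted p = 0.708). Without degenerative pool A it was 0.16 and without degenerative pool C 0.66.

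PKP2 encodes plakophilin 2, an armadillo protein that clusters desmosomal cadherins and desmoplakin at the membrane. Of its pair of probe sets, the brighter read 13.00, 12.40 and 12.53 in degenerative pools A, B and C, against 13.43, 12.85 and 12.78 in blastocyst pools A, B and C. Both A pools were the highest of their groups, and the groups overlapped because degenerative pool A lay above blastocyst pools B and C. The difference of the means, 12.65 ± 0.32 in degenerative embryos and 13.02 ± 0.36 in blastocysts (SD, n = 3 each), was -0.37 (SE 0.26, 95% interval -1.05 to 0.30, adjusted p = 0.727).

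The dimmer PKP2 probe set read 8.03, 6.25 and 6.65 in degenerative embryos, against 9.96, 7.30 and 7.58 in blastocysts. It spread the pools over a wider scale, again with both A pools the highest of their groups. The means were 6.98 ± 0.93 in degenerative embryos and 8.28 ± 1.46 in blastocysts (SD, n = 3 each) and the difference was -1.30 (SE 0.92, 95% interval -3.72 to 1.12, adjusted p = 0.733). Over the 6 pools the pair of probe sets correlated with r = 0.98, a description of pools that share their group and array.

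For PKP2 the pool letter mattered. Within letters A, B and C the differences were -0.43, -0.45 and -0.25 for the brighter probe set and -1.93, -1.05 and -0.93 for the dimmer one, all lower in degenerative embryos. With the letter as a replicate block the SE was 0.07 for the brighter and 0.27 for the dimmer probe set, against 0.26 and 0.92 without it, and both had an adjusted p of 0.495, so that neither was called. Without degenerative pool A the differences were -0.55 and -1.83, and without blastocyst pool A -0.17 and -0.46, for the brighter and the dimmer probe set. Of the 9 tested probe sets, 3 (DSC2 and both of PKP2) were lower in degenerative embryos within all 3 letters, where 19.0% of all tested probe sets were. JUP and GJA1 were higher within all 3 letters. In either direction 5 of the 9 kept 1 sign over the letters, where 34.0% of all tested probe sets did.

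GJA1 encodes the connexin that is most widely expressed in mammalian tissues. The probe set above the floor read 10.11, 11.55 and 11.32 in degenerative pools A, B and C, against 8.20, 9.07 and 10.89 in blastocyst pools A, B and C. Blastocyst pool C lay above degenerative pool A, and this alone made the groups overlap. The means were 10.99 ± 0.77 in degenerative embryos and 9.39 ± 1.38 in blastocysts (SD, n = 3 each), a log2 difference of 1.61 (SE 0.84, 95% interval -0.60 to 3.82), or 3.05-fold higher. The blastocyst pools alone spanned a wider range than the difference of the means, and the adjusted p was 0.647. The difference was 2.05 without degenerative pool A, 1.01 without blastocyst pool A and 2.36 without blastocyst pool C. The other GJA1 probe set stood at 2.12 on all arrays.

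GJB5 encodes a connexin known from skin and, in the mouse, from the trophoblast. The GJB5 probe set read 10.84, 10.44 and 9.56 in degenerative pools A, B and C, against 7.42, 9.04 and 9.63 in blastocyst pools A, B and C. Blastocyst pool C lay just above degenerative pool C, and blastocyst pool A was far below all others. The means were 10.28 ± 0.66 in degenerative embryos and 8.70 ± 1.15 in blastocysts (SD, n = 3 each), a log2 difference of 1.58 (SE 0.70, 95% interval -0.26 to 3.43), with an adjusted p of 0.620. By letter the difference was 3.43 for A, 1.40 for B and -0.07 for C. The A pools carried much of it: without both of them it was 0.66, without blastocyst pool A alone 0.95 and without degenerative pool A alone 1.30.

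GJC1 encodes a connexin of early heart and smooth muscle. Its probe set was dim, with 4.57, 4.70 and 3.45 in degenerative pools A, B and C and 3.77, 3.69 and 3.82 in blastocyst pools A, B and C. Degenerative pool C was the lowest of all and the other degenerative pools the highest. The means were 4.24 ± 0.69 in degenerative embryos and 3.76 ± 0.07 in blastocysts (SD, n = 3 each), with a difference of 0.48 (SE 0.37, 95% interval -0.49 to 1.45, adjusted p = 0.737). Without degenerative pool A the difference was 0.32. Without degenerative pool C it was 0.88 (adjusted p = 0.205), and SAM at 25% then called GJC1, as 1 of 190 probe sets called in all (1.02%).

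GJB2 encodes a connexin of many epithelia, among them the inner ear. None of its 3 probe sets rose more than 0.02 above the floor of 2.12 in any of the 6 pools. No level or fold is given for GJB2, since a probe set at the floor has only an upper bound.

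Some of these genes ran together over the 6 pools and others ran against each other. Over the 6 pools, as a description in which the points share group and array, DSC2 had r = -0.84 with JUP and -0.85 with GJB5, and the brighter PKP2 probe set had r = -0.90 with GJA1. GJA1 and GJB5 had r = 0.75. Degenerative pool A held the lowest DSC2 value and the highest JUP and GJB5 values, and no r was computed without it. Among 7420 probe sets of other genes with a mean of at least 5, those most like GJA1 were MYLK (myosin light chain kinase, r = 0.997), CHCHD2 (a mitochondrial protein, r = 0.994) and IFNGR2 (a chain of the interferon gamma receptor, r = 0.991). The most like DSC2, a target chosen after its values were seen, were RASSF3 (r = 0.997), the annexin gene ANXA3 (r = 0.996) and PLLP, which encodes the membrane protein plasmolipin (r = 0.996).

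**Figure D3:**
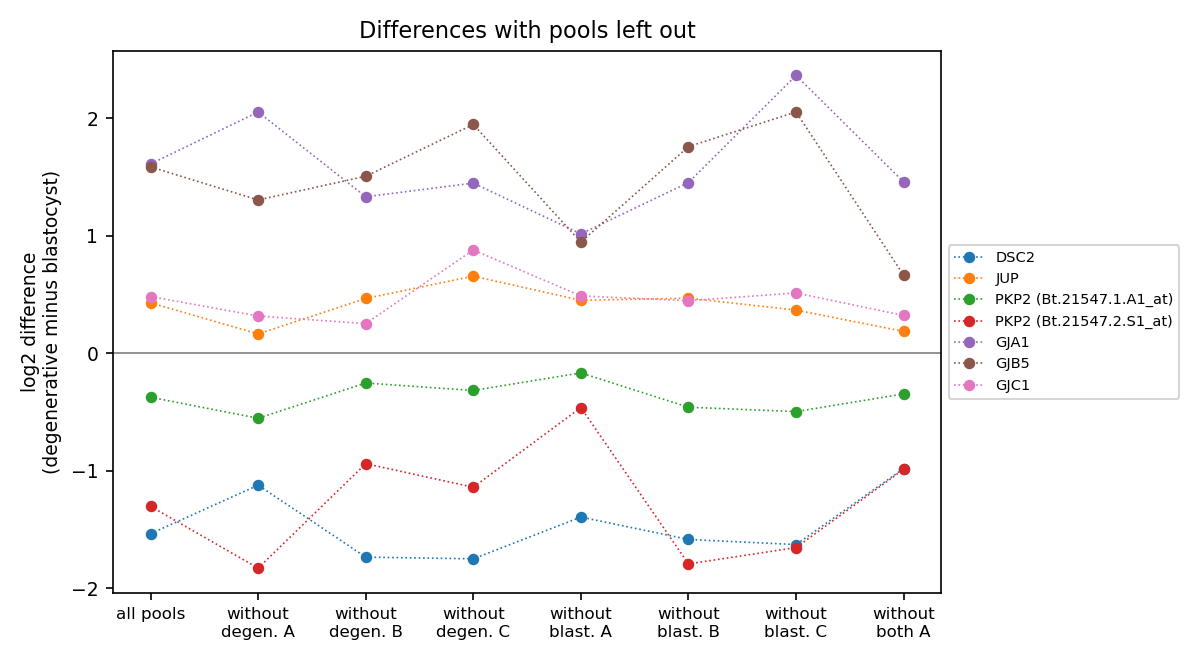
Log2 difference (y axis, degenerative minus blastocyst) of the 7 probe sets above the floor, with all pools and with pools left out (x axis); dotted lines join the points of a probe set and are no time course. No probe set crosses zero, and GJB5 lies between 0.66 without both A pools and 2.05 without blastocyst pool C.

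Among the other desmosomal genes, the differences over all pools were smaller than that of DSC2. Of 13 other desmosomal genes 8 had a probe set and 7 were tested, with 3 differences above and 4 below zero, a median of -0.01 and 0 calls by limma or by SAM at 15%. PERP, a membrane protein of desmosomes, was the 1 called by SAM at 25%. It read 12.31, 11.99 and 12.31 in degenerative pools A, B and C, against 12.99, 12.80 and 12.54 in blastocyst pools A, B and C, without overlap. Its difference was -0.57 (SE 0.16, adjusted p = 0.518). The plakophilins PKP1 and PKP3 had differences of -0.27 and 0.19 (adjusted p = 0.626 and 0.907), and PKP3 had -0.25 without degenerative pool A. PKP4 had -0.35 (adjusted p = 0.924), with degenerative pool A at 8.20, above all other pools (5.28 to 7.12). Without degenerative pool A the difference of PKP4 was -1.32, larger than that of DSC2 without the same pool (-1.12). DSC1, DSC3 and DSG1, cadherins of stratified epithelia, read no more than 2.14 in any pool.

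Of 20 other connexin and pannexin genes 4 had a probe set, and none lay clearly above the floor in more than 1 pool. GJB1, GJB6 and GJD2 were at or within 0.02 of the floor in all pools. PANX1, a channel protein related to connexins in form, read 4.73 in degenerative pool A and 2.23 in each of the other 5 pools. Of 17 partners and regulators of connexins 10 had a probe set and 9 were tested, with 1 difference above and 8 below zero, a median of -0.14, 0 calls by limma or by SAM at 15%, and 1 by SAM at 25%. That was EZR, which encodes ezrin, a linker of the membrane to actin that also anchors protein kinase A near connexins. EZR read 13.87, 13.71 and 13.90 in degenerative pools A, B and C, against 14.54, 14.31 and 14.22 in blastocyst pools A, B and C. The groups did not overlap, and the difference was -0.53 (SE 0.11, adjusted p = 0.459). PRKACA and USP8, the next by limma p, had differences of -0.14 and -0.23 (adjusted p = 0.651 and 0.652). TJP1 is a gene of this list that the paper names among its differentially expressed genes. The probe set that stood for TJP1 here lay at the floor, with 2.12 to 2.13 in all pools. The counts for this list therefore say nothing about the TJP1 transcript that the paper reports.

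Among 25 genes of adherens and tight junctions 19 were tested, with 9 differences above and 10 below zero, a median of -0.03 and 0 calls by limma or by SAM at 15%. CGN, which encodes the tight junction protein cingulin, had a difference of -0.53 (adjusted p = 0.496) without overlap and was the 1 called by SAM at 25%. PRKCZ, a kinase of the polarity complex, had -0.22 and the claudin gene CLDN10 had 0.31 (adjusted p = 0.601 and 0.605).

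Keratins are the filaments that desmosomes hold. Of 12 keratin and plakin genes 8 were tested, with 3 differences above and 5 below zero, a median of -0.05 and 0 calls by limma or by SAM at 15% or 25%. KRT5, a keratin of basal cells, read 13.39, 13.23 and 12.82 in degenerative pools A, B and C, against 10.25, 11.26 and 11.98 in blastocyst pools A, B and C. The groups did not overlap, and the difference was 1.98 (SE 0.49, adjusted p = 0.487). KRT19, a keratin of simple epithelia, had -1.18 (adjusted p = 0.668), and degenerative pool A at 11.61 lay far below the other 5 pools at 13.31 or more. Without that pool the difference was -0.51. MACF1, a linker of actin and microtubules, had -0.19 (adjusted p = 0.713).

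**Figure D4:**
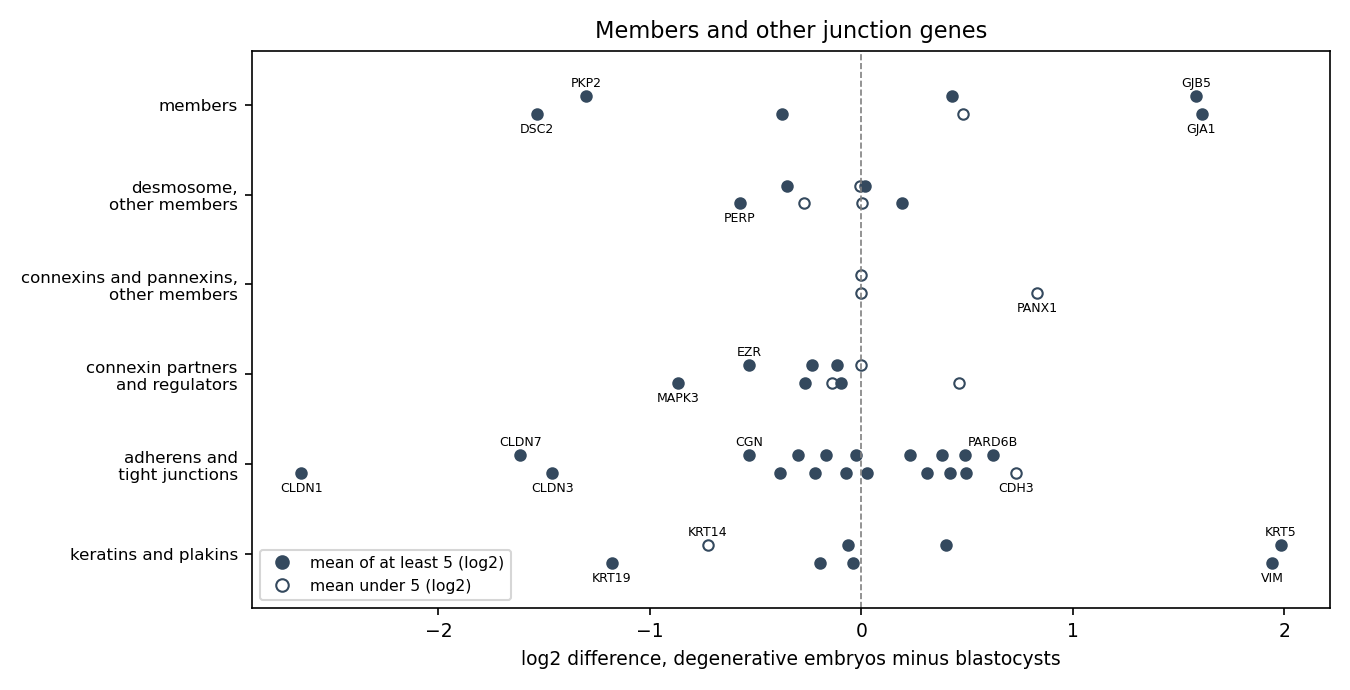
Log2 difference (x axis, degenerative minus blastocyst) of the 7 member probe sets above the floor and of each tested gene of the 5 junction lists (y axis). Open circles mark a mean under 5, the vertical jitter has no meaning, and genes with a difference of at least 0.5 in size are named. DSC2 at -1.53 lies left of every other desmosomal gene, and no gene shown passed the limma threshold.

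Markers of the embryo's cell types were measured on the same arrays. Their part in the results above was not tested. Of 17 trophectoderm markers 12 were tested, with 3 differences above and 9 below zero, a median of -0.47, 0 calls by limma or by SAM at 15% and 1 by SAM at 25% (TFAP2A). Their summed level (log2 of the sum) was 15.92 to 16.07 in degenerative pools and 16.04 to 16.29 in blastocyst pools. TFAP2A, a trophectoderm transcription factor, read 4.78, 6.98 and 6.47 in degenerative pools A, B and C, against 9.26, 8.96 and 8.70 in blastocyst pools A, B and C, a difference of -2.90 (adjusted p = 0.470) without overlap, and of -2.25 without degenerative pool A. PAG2, a pregnancy-associated glycoprotein, had -2.41 and the water channel AQP3 had 0.91 (adjusted p = 0.566 and 0.580). Without degenerative pool A these were -1.49 and 0.74. Other markers moved more with that pool, which the list median includes. Without it IFNT2 went from -1.01 to -0.10, ELF5 from -1.10 to -0.24, TKDP1 from -0.90 to 0.02 and ATP1B1 from -0.26 to 0.75. In the other direction, FGFR2 went from -0.68 to -0.89, KRT8 from -0.04 to -0.51, KRT18 from -0.06 to -0.15 and SLC2A1 from 0.43 to -0.06. The keratin KRT18, high in the trophectoderm, lay between 15.17 and 15.65 in all pools. It made up most of the summed level of this list, which therefore says little about the other markers.

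Of 13 inner cell mass and epiblast markers 3 were tested, all with differences above zero (SOX2 1.03, KLF4 0.51, POU5F1 0.48). Without degenerative pool A they were 0.69 for SOX2, 0.26 for KLF4 and 0.31 for POU5F1. Their summed level was 14.18 to 14.98 in degenerative pools and 13.93 to 14.06 in blastocyst pools. Of 13 hypoblast markers 10 were tested, 7 above and 3 below zero, with a median of 0.19 (COL4A1 0.62, and 0.37 without degenerative pool A, GATA4 1.17, and 1.79 without it) and a summed level of 15.38 to 16.11 in degenerative pools and 15.46 to 15.60 in blastocyst pools. Both lists had 0 calls by limma or by SAM at 15% or 25%.

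GJA1 is also a main connexin of cumulus cells, which surround the oocyte in the follicle. Of 16 cumulus and granulosa cell markers 13 were tested, 7 above and 6 below zero, with a median of 0.00. The defining markers FOXL2, AMH, LHCGR and INHA read no more than 2.13 in any of the 6 pools, and CYP19A1 read 2.55 to 2.75 in degenerative pools and 2.61 to 6.69 in blastocyst pools. PTGS2 read 12.64 to 13.00 in degenerative pools and 13.54 to 14.24 in blastocyst pools, VCAN had a difference of 1.58 and FSHR of -0.52. Without degenerative pool A the difference of VCAN was 2.08. INHBA, an activin subunit, read 8.70, 9.03 and 7.84 in degenerative pools A, B and C, against 3.71, 6.64 and 7.68 in blastocyst pools A, B and C, without overlap (difference 2.51, adjusted p = 0.624). PTX3, a protein of the cumulus matrix, read 2.12, 8.36 and 7.22 in degenerative pools A, B and C, against 2.25, 2.12 and 4.27 in blastocyst pools A, B and C (difference 3.02, adjusted p = 0.700). Without degenerative pool A its difference was 4.91. The summed level of the list was 13.21 to 13.40 in degenerative pools and 13.70 to 14.39 in blastocyst pools, and PTGS2 made up most of it. Of 10 spermatozoon markers 4 were tested, 2 above and 2 below zero (TNP1 -0.77, ODF2 -0.44, PRM1 0.20, AKAP4 0.14). TNP1 read 4.51, 5.69 and 5.51 in degenerative pools A, B and C, against 4.43, 6.17 and 7.42 in blastocyst pools A, B and C. The summed level of this list was 10.33 to 10.78 in degenerative pools and 10.92 to 11.03 in blastocyst pools. That sum was nearly all ODF2, which alone read 10.23 to 10.71 in degenerative pools and 10.81 to 10.95 in blastocyst pools. Neither list had a call by limma or by SAM at 15%, and SAM at 25% called 1 gene of each, PTGS2 and ODF2.

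RNA quality can be read from control probe sets at both ends of a transcript. The level at the 3′ end minus that at the 5′ end of EIF4E was 9.13 to 9.87 in degenerative pools and 6.60 to 8.59 in blastocyst pools, without overlap. For GAPDH it was 2.48 to 2.52 in degenerative pools and 1.83 to 2.89 in blastocyst pools, and for PPIB 2.52 to 3.22 in degenerative pools and 2.13 to 2.72 in blastocyst pools. For EEF1A1 it was 0.52 to 0.83 in degenerative pools and -1.65 to 0.87 in blastocyst pools. These last 3 controls overlapped between the groups. The 5′ probe set of EIF4E read only 2.64, 2.56 and 3.7 in degenerative pools A, B and C, where the floor can make its difference too small but not too large. The middle probe set of EIF4E read 9.74 to 9.96 in degenerative and 10.40 to 11.48 in blastocyst pools. That of GAPDH ran the other way, with 12.70 to 13.18 in degenerative and 12.40 to 12.67 in blastocyst pools. The middle probe sets of PPIB and EEF1A1 overlapped between the groups. The 5′ probe set of ACTA1 stayed near the floor in all pools, so its 3′ minus 5′ value follows the 3′ level alone. That 3′ level was 4.48 to 7.14 in degenerative pools and 7.56 to 8.84 in blastocyst pools. The 3′ level of EIF4E was also lower in degenerative pools, at 12.36 to 12.82 against 13.01 to 13.16 in blastocyst pools. The part of these differences in the values of DSC2, GJA1 and GJB5 was not tested.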

How the data were processed

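The authors deposited log2 expression levels, 1 per probe set and pool, from GCRMA (the submitters' processing notes name version 2.14.1), which corrects background, normalizes by quantiles and summarizes probes by median polish. Arrays have no read depth, so the small number of pools sets the precision. The methods describe 2 rounds of linear amplification of the RNA and the labels 1.

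Genes were named from the platform annotation, updated through the ARS-UCD2.0 gene table. The 20 control probe sets and 5079 probe sets with a single value were left out, after the methods. Differences (degenerative minus blastocyst) were tested over 18937 probe sets with limma 3.58.1 in R 4.3.3 (lmFit, eBayes, Benjamini-Hochberg, adjusted p of at most 0.15). SAM was rewritten from its description, with all 20 relabelings, and both were tested on simulated data. Its fudge factor was only 1.03e-08 and could not hold back probe sets of small spread.

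Members and gene lists were chosen with earlier results of these data known. The text names every member with all of its probe sets and, from each list, up to 3 genes with the smallest limma p on the brightest probe set of a gene. Some genes beyond this rule (DSC1, DSC3, DSG1, PKP4, GJB6, TJP1, KRT8, KRT18, IFNT2, ELF5, TKDP1, ATP1B1, FGFR2, SLC2A1, FOXL2, AMH, LHCGR, INHA, CYP19A1, HAS2, STAR, CD44, TNFAIP6, INHBA, PTX3, TNP1, BAX) were named after their values were seen. The rule also took genes most like DSP, GJA1 and the member with the largest difference among brighter ones, which was GJA1. DSC2 took the place of DSP, which had no probe set.

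The pool letters were checked for pairing. Deviations from the group means correlated within letters (r = 0.373 for A, 0.180 for B and 0.275 for C), which passed the limit of 0.1 set for 3 pairs, although B and C pools of unlike letter reached 0.374. What the letters mean is not given in the sources used here.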

Additional observations from a re-analysis of the deposited data

How the results depend on the processing

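The 7 reported differences kept their direction under each of 12 other settings in which they could be computed: each array centred on its median, a filter on means under 5 (which leaves out GJC1), flat and control probe sets kept, a trend in the prior variance, the replicate block, each pool left out, and both A pools left out. The filter, the flat and control probe sets, the trend and the block cannot change a difference of group means, only its spread. Centring shifted all differences by the same small amount (DSC2 to -1.50). Only the settings with pools left out could thus have turned a direction. None of the 7 was called by limma in any of the 12 settings. With all pools none had an adjusted p of 0.25 or less. GJC1 without degenerative pool C (0.205) and DSC2 without both A pools (0.216) did.

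SAM at 15% called 1 member probe set, DSC2, when means under 5 were left out (229 of 11316 called, 2.02%), and 1, DSC2, at a false discovery rate of 25%. With flat and control probe sets kept, DSC2 was not called at 25% (297 of 24036 called, 1.24%). With any single pool left out, SAM at 15% called 0 members, and only 1 or 2 probe sets in all, so this count tells little.

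The count of member probe sets without overlap was 2 with each array centred on its median (DSC2 and GJB5; 16.7% of all tested) and 4 without both A pools (41.1% of all tested), both chosen after seeing the data. It was 1 to 4 with single pools left out: 4 without degenerative pool A (DSC2, GJA1 and both of PKP2; 30.7% of all tested), 4 without degenerative pool C (DSC2, GJB5, JUP and GJC1; 28.2%) and 3 without blastocyst pool C (DSC2, GJA1 and GJB5; 21.8%), against 15.4% of all tested with all pools.

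With the pool letter as a replicate block, 0 members were called by limma. DSC2 then had an SE of 0.48 (adjusted p = 0.531). The block changed no call of a member at the adjusted threshold, while the unadjusted p under 0.05 moved to PKP2 as given above. It left 0 of all tested probe sets called, against 4 without it.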

Other observations

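Maternal oocyte transcripts, which the embryo inherits from the egg, had higher means in degenerative embryos, but most of them lay low on the scale. Of 13 genes 7 were tested, all with differences above zero, a median of 0.91 and 0 calls by limma or by SAM at 15%, and only 1 had a mean of at least 5. ZP2, ZP3 and NLRP5 rested mainly on degenerative pool A, with differences of 1.40, 0.82 and 1.13 with it and 0.50, 0.29 and 0.25 without it. KPNA7, an oocyte importin, read 4.95, 3.57 and 3.35 in degenerative pools A, B and C, against 2.23, 2.23 and 2.74 in blastocyst pools A, B and C (difference 1.56, adjusted p = 0.542). Without degenerative pool A its difference was 1.06. OOEP and ZP4 had 0.76 and 0.91 (adjusted p = 0.624 and 0.625). The summed level was 8.04 to 8.74 in degenerative pools and 7.24 to 7.92 in blastocyst pools. Of 16 apoptosis and stress genes 10 were tested, 6 above and 4 below zero, with a median of 0.09 and 0 calls by limma or by SAM at 15%. BAK1, a pore former of apoptosis, had 1.32, the heat shock gene HSPA1A 0.53 and ATF3 -0.25 (adjusted p = 0.545, 0.554 and 0.696). BAX, of the same family as BAK1, went the other way with -1.65 (adjusted p = 0.737), and -0.42 without degenerative pool A.

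Some neighbours of the junction genes, chosen after their values were seen, varied widely between pools. CLDN1, a tight junction claudin, was at the floor of 2.12 in degenerative pool A and read 8.47 and 9.03 in degenerative pools B and C, against 8.99, 8.84 and 9.74 in blastocyst pools A, B and C. VIM, the vimentin gene, read 10.28, 13.44 and 12.38 in degenerative pools A, B and C, against 8.05, 10.32 and 11.90 in blastocyst pools A, B and C. Their differences of -2.65 and 1.94 had adjusted p-values of 0.737 and 0.727, and were -0.44 and 2.82 without degenerative pool A.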
